A study of Rattus norvegicus with 12 samples.

Results

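Of the genes measured in this series, 48 genes of the interferon response were chosen by symbol from a list of receptors, signalling factors and interferon-induced effectors, taking for each symbol the row of highest mean expected count. The files held 47 of the 48 among 32623 genes, and Xaf1 was not analysed here. Of the 47, 46 passed the filter on low counts among 13539 genes tested, and Gbp1, a guanylate-binding protein, stayed below it with 0 to 0.236 CPM per library. CPM are counts scaled to a library of fixed size, so members are set side by side for 1 gene across libraries and not between genes. Cell markers are the exception: they are read by level and summed over lists, where the most abundant genes weigh most.

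Interferons are secreted signals of antiviral and immune defence. Type I interferons bind the receptor chains Ifnar1 and Ifnar2, and interferon gamma binds Ifngr1 and Ifngr2. Janus kinases on these chains phosphorylate transcription factors. In the type I response a complex that holds Stat2 and Irf9 binds the interferon-stimulated response element in target promoters, while the response to interferon gamma also works through the gamma-activated sequence. In the liver, Kupffer cells and other macrophages respond to interferon with a large set of effectors that block viral entry, translation and replication, and a part of the set is also kept at a lower level by tonic signalling.

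The cells came from rats and carry the label of primary hepatic stellate cells. They were obtained on density gradients from livers of rats with cirrhosis after long-term inhalation of carbon tetrachloride. They shared culture medium for 24 h, through Transwell inserts that pass soluble products, with human amniotic epithelial cells (hAEC) or human amniotic mesenchymal stromal cells (hAMSC), 15000 viable cells in either case, or with vehicle (Veh). There were 4 libraries per group, called by their numbers in the labels: hAEC 3, 4, 11 and 12, hAMSC 7, 8, 15 and 16, and Veh 17, 18, 19 and 20. Whether the 4 libraries of a group stem from different animals or dishes is not in the labels, so p-values speak of the variation among these libraries only, and that variation may be technical.

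The label was checked against cell markers. All 11 macrophage markers in the files were above 1 CPM on average, and 9 of the 10 stellate cell and myofibroblast markers averaged at most 2.20 CPM, among them Lrat with 0.174 CPM, Acta2 with 1.88 CPM and Col1a1 with 2.20 CPM. The tenth, Reln, averaged 39.5 CPM, with 6.71 to 15.4 CPM in the higher-numbered set and 54.8 to 92.2 CPM in the lower-numbered set. The cells are therefore called by their label only. Within each group the pair of libraries with higher numbers stood apart from the pair with lower numbers: the first principal component of 2000 variable genes outside the interferon list held 85.3% of the variance and split the 12 libraries exactly so, 6 to a set. The labels do not say what the sets are. Summed macrophage markers were 17297 to 19105 CPM in the higher-numbered set and 7468 to 8205 CPM in the lower-numbered set, with most of the difference in Lyz2 (8398 to 9937 CPM and 984 to 1195 CPM in the same order). Of the 11, 5 were higher in each library of the higher-numbered set, 2 were lower, Cd14 (167 to 217 CPM and 932 to 1079 CPM) and Marco (33.98 to 48.1 CPM and 98.8 to 115 CPM), and 4, Cd68 among them, overlapped. Summed stellate cell markers were 19.9 to 25.9 CPM and 60.0 to 98.8 CPM, but without Reln they were 9.52 to 15.98 CPM and 5.21 to 9.13 CPM. In such bulk RNA, fewer cells of a type and less RNA per cell cannot be told apart. Total counts were 27382724 to 34922211 per library.

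Promoter sequence was available for 36 of the 47 members, as RefSeq gives it for the assembly GRCr8 from 250 bases before to 50 bases after the gene start. GRCr8 is not the build of the deposited counts, so the match was by symbol. An interferon-stimulated response element-like match, spelled GAAA, any 2 bases and GAAA again and searched on both strands, stood in 20 of the 36 windows (55.6%), against 1312 of 33465 windows of all genes of the same length (3.92%). A gamma-activated sequence-like match, spelled TTC, any 3 bases and GAA, which reads the same on both strands, stood in 9 of the 36 (25%), against 8.87% of all windows, and a match to one motif overlapped a match to the other in 1 window, that of Bst2. Such a match is a description of letters, not a site shown to be bound. Among the 12 members with a window that were at least 2-fold lower in the higher-numbered set, 10 held the response element-like match (83.3%), and among the other 23 tested members with a window 10 held it (43.5%). The 7 windows below are shown in the gene's own direction, with that motif in capitals on either strand. The first 5 have the match nearest to the gene start among members with large set differences, and Ifngr1 and Stat2 have none. They lie at Gbp2 chr2:234005477-234005776 (plus strand), Oas1a chr12:41330216-41330515 (plus strand), Ifit3 chr1:241527076-241527375 (plus strand), Gbp5 chr2:233910749-233911048 (plus strand), Irf7 chr1:205799974-205800273 (minus strand), Ifngr1 chr1:16152660-16152959 (plus strand) and Stat2 chr7:1286840-1287139 (plus strand), all in GRCr8.
Gbp2: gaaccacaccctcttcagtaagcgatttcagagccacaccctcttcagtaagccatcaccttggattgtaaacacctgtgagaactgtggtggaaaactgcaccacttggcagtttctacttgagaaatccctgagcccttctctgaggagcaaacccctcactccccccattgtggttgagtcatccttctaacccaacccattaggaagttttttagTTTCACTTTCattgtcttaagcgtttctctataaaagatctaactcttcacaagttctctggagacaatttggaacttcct
Oas1a: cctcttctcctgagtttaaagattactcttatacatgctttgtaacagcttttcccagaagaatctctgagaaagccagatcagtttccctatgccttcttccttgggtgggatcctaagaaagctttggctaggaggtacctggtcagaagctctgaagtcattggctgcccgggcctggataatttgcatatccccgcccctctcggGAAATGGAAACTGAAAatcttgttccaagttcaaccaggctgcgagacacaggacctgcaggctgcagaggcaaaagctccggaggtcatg
Ifit3: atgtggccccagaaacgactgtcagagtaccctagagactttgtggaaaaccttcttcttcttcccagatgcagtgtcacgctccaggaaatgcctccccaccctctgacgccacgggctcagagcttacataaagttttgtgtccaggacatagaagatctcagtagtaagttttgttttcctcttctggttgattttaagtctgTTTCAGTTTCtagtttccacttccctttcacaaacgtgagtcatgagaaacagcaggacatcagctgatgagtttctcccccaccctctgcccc
Gbp5: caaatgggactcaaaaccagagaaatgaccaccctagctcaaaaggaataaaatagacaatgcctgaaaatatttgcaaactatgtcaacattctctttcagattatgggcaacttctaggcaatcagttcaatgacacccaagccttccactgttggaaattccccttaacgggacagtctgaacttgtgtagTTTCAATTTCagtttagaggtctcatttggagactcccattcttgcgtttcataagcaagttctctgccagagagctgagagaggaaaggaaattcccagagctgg
Irf7: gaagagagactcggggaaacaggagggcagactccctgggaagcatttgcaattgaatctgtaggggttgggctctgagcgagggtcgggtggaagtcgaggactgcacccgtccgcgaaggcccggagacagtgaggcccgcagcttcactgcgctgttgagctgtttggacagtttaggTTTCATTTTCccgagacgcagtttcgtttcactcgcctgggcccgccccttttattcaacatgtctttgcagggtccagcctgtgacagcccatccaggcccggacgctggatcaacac
Ifngr1: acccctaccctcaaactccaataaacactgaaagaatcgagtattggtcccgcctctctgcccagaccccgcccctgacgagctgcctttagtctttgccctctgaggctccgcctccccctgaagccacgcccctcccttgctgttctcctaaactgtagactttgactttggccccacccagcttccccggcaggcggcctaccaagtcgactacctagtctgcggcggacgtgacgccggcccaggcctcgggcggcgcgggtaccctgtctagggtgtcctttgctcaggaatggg
Stat2: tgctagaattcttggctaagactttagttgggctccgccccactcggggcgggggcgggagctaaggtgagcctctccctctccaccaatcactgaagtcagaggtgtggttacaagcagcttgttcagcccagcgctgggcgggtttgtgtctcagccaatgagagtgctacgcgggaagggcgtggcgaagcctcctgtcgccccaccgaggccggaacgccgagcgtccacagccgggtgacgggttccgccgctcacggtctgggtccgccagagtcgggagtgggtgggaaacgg

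In Gbp2 the match begins 31 bases and ends 22 bases before the gene start, in Ifit3 it runs from 44 to 35 bases before it, in Gbp5 from 56 to 47 and in Irf7 from 69 to 60. Oas1a holds 2 matches that share letters, at 41 to 32 and 35 to 26 bases before the start. Ifngr1, the only member that was at least 2-fold higher in the higher-numbered set, holds neither motif in its window, and neither does Stat2, whose levels overlapped between sets. Windows not shown went the other way. Trim21 and Ifi44 hold 2 response element-like matches each and were not lower in that set (log2 difference 0.14 and 0.33). Herc6 and Oasl hold none and were at least 2-fold lower (-1.28 and -1.21).

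Interferon effectors were lower in the higher-numbered set. Of the 46 tested members, 16 were at least 2-fold lower there and 1 was at least 2-fold higher, where 9.98% of all tested genes were at least 2-fold lower and 9.71% at least 2-fold higher. The median log2 difference (higher- minus lower-numbered set, with the groups in the model) was -0.63 over the members and -0.00 over all tested genes, and 38 of the 46 members were below 0 (50.4% of all genes). For 30 members each of the 6 libraries of the higher-numbered set was below each of the 6 of the lower-numbered set (28% of all genes), for 3 members, Ifngr1, Samhd1 and Trim25, each was above (26.9%), and for 13 the sets overlapped. Because the sets were seen in these data, the differences between them are described with no test. Summed markers of macrophages and the stellate cell marker Reln moved between the same sets, as did those of endothelium (202 to 336 CPM in the higher-numbered set and 447 to 557 CPM in the lower-numbered set) and of NK and T cells (4.62 to 6.37 CPM and 17.3 to 25.1 CPM). Summed markers of plasmacytoid dendritic cells, known for making type I interferon, were 284.8 to 304.7 CPM and 152 to 161 CPM in that order, mostly from Irf8, which macrophages also express, while Siglech was at most 0.472 CPM and Ly6d was at 0 in all 12. Summed hepatocyte markers were 671 to 818 CPM and 519 to 650.4 CPM, almost all from Tf. Among the NK and T cell markers, Nkg7, Klrd1, Gzmb, Prf1 and Ncr1 were lower in each library of the higher-numbered set, whereas Cd3e, Cd3g and Cd8a overlapped between sets. Among the endothelial markers, Cdh5, Tek and Lyve1 were lower in each library of that set, whereas Kdr, Stab2, Clec4g, Eng and Vwf overlapped. The part of all these cell markers in the result was not tested.

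**Figure D1:**
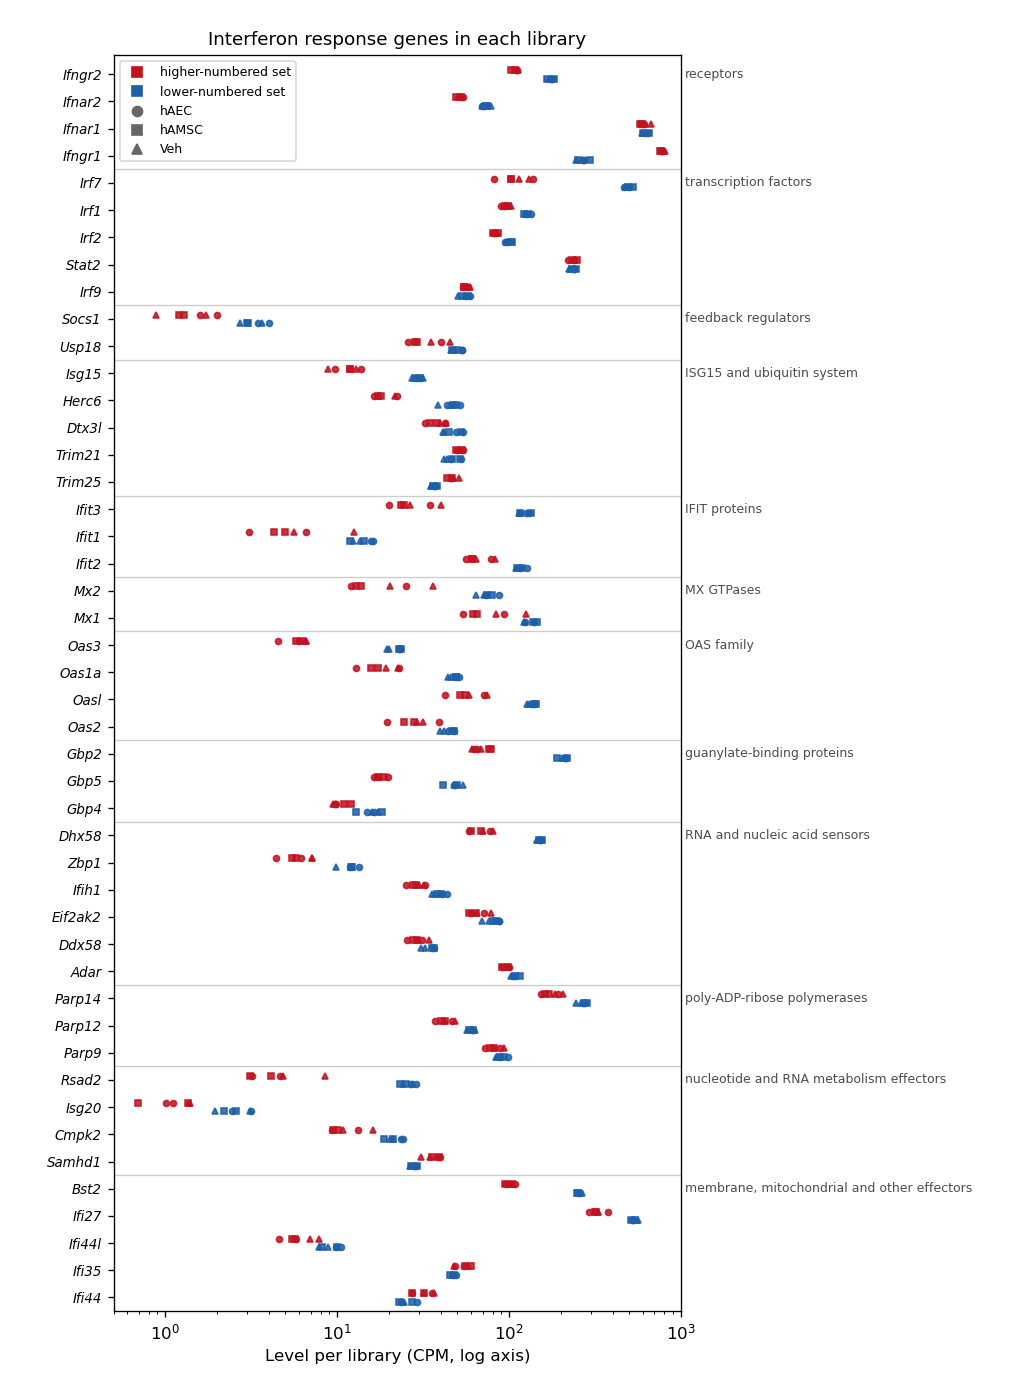
Level of each of the 46 tested interferon response genes in the 12 libraries, in CPM on a log axis, grouped by role; red marks the higher-numbered and blue the lower-numbered set, and circles, squares and triangles mark hAEC, hAMSC and Veh. Most effectors have all red marks left of all blue marks, as for 30 of 46 genes, whereas Ifngr1 has them on the right.

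The receptors did not move together. Ifngr1, the ligand-binding chain of the interferon gamma receptor, had 769.9 and 762 CPM in hAEC 11 and 12, 749.6 and 760.3 CPM in hAMSC 15 and 16 and 803 and 781 CPM in Veh 19 and 20. Ifngr1 in the lower-numbered set had 269 and 271 CPM in hAEC 3 and 4, 294 and 252 CPM in hAMSC 7 and 8 and 264 and 243 CPM in Veh 17 and 18. Every library of the higher-numbered set was above every one of the lower (log2 difference 1.54, SE 0.04). Its partner chain Ifngr2 went the other way, with 109.7 and 112 CPM in hAEC 11 and 12, 108 and 102 CPM in hAMSC 15 and 16 and 112 and 113 CPM in Veh 19 and 20. In the lower-numbered set Ifngr2 had 175 and 178 CPM in hAEC 3 and 4, 182 and 166 CPM in hAMSC 7 and 8 and 177 and 169 CPM in Veh 17 and 18 (log2 difference -0.68, SE 0.03). Ifnar2, a chain of the type I receptor, had 52.7 and 53.9 CPM in hAEC 11 and 12, 52.7 and 48.8 CPM in hAMSC 15 and 16 and 52.8 and 50.4 CPM in Veh 19 and 20. Ifnar2 in the lower-numbered set had 69.5 and 71.7 CPM in hAEC 3 and 4, 74.7 and 73.5 CPM in hAMSC 7 and 8 and 69.3 and 78.2 CPM in Veh 17 and 18 (log2 difference -0.49, SE 0.04). Both Ifngr2 and Ifnar2 were lower in each library of the higher-numbered set. Ifnar1, the other type I chain, overlapped between sets, with 611 and 596 CPM in hAEC 11 and 12, 589 and 575 CPM in hAMSC 15 and 16 and 672 and 618 CPM in Veh 19 and 20. In the lower-numbered set Ifnar1 had 621 and 646 CPM in hAEC 3 and 4, 652 and 601 CPM in hAMSC 7 and 8 and 599.8 and 596 CPM in Veh 17 and 18 (log2 difference -0.02, SE 0.04). Ifnar1, Ifnar2 and Ifngr2 lie on chromosome 11 and Ifngr1 on chromosome 1 in GRCr8.

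Among the transcription factors the difference sat in Irf7, the factor that amplifies type I interferon production and is itself induced by interferon. Irf7 had 138 and 81.1 CPM in hAEC 11 and 12, 102 and 102 CPM in hAMSC 15 and 16 and 130.1 and 114 CPM in Veh 19 and 20. Irf7 in the lower-numbered set had 498 and 462 CPM in hAEC 3 and 4, 527 and 494 CPM in hAMSC 7 and 8 and 469.6 and 477 CPM in Veh 17 and 18 (log2 difference -2.14, SE 0.13). The sets were far apart, and within the higher-numbered set hAEC 11 was the highest library and hAEC 12 the lowest. Irf1, induced mainly by interferon gamma, differed less, with 93.1 and 89.3 CPM in hAEC 11 and 12, 97.97 and 95.2 CPM in hAMSC 15 and 16 and 98.8 and 102 CPM in Veh 19 and 20. In the lower-numbered set Irf1 had 133 and 125 CPM in hAEC 3 and 4, 122 and 128 CPM in hAMSC 7 and 8 and 126 and 125 CPM in Veh 17 and 18 (log2 difference -0.40, SE 0.04). Irf2, which binds the same elements as Irf1 and can oppose it, had 80.2 to 85.6 CPM in the higher-numbered set and 94.5 to 104 CPM in the lower-numbered set. The partners of the type I signalling complex were level between sets. Stat2 had 238 and 219 CPM in hAEC 11 and 12, 249 and 233 CPM in hAMSC 15 and 16 and 242 and 236 CPM in Veh 19 and 20. Stat2 in the lower-numbered set had 239.8 and 239 CPM in hAEC 3 and 4, 245 and 231 CPM in hAMSC 7 and 8 and 224 and 225 CPM in Veh 17 and 18 (log2 difference 0.01, SE 0.03). Irf9, its DNA-binding partner, had 57.8 and 54.2 CPM in hAEC 11 and 12, 54.7 and 54.5 CPM in hAMSC 15 and 16 and 58.05 and 59.4 CPM in Veh 19 and 20. In the lower-numbered set Irf9 had 58.8 and 56.4 CPM in hAEC 3 and 4, 57.3 and 53.5 CPM in hAMSC 7 and 8 and 50.5 and 55.2 CPM in Veh 17 and 18 (log2 difference 0.03, SE 0.04). For both, the ranges of the sets overlapped. The members within 1.2-fold between sets at a mean of at least 20 CPM were Ifnar1, Stat2, Irf9, Trim21, Ifi35, Parp9, Adar, Ddx58 and Irf2.

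The feedback regulators were lower in the higher-numbered set. Usp18, which removes ISG15 from proteins and dampens the type I receptor, had 25.7, 32.01 and 45.5 CPM in the higher-numbered set, against 45.98, 49.05 and 53.2 CPM in the lower-numbered set (lowest, median and highest of 6 libraries, here and below). Socs1, an inhibitor of Janus kinases, had 0.882, 1.44 and 2.004 CPM in the higher-numbered set, against 2.71, 3.24 and 4.01 CPM in the lower-numbered set (log2 difference -1.20, SE 0.16), a level of a few CPM at most.

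The antiviral effectors held the largest differences. Rsad2, which encodes viperin and makes a chain-terminating nucleotide, had 3.10, 4.40 and 8.50 CPM in the higher-numbered set, against 23.1, 25.99 and 28.8 CPM in the lower-numbered set (log2 difference -2.49, SE 0.20). Ifit3, of the family that binds viral RNA ends, had 20.1, 25.5 and 40.1 CPM in the higher-numbered set, against 114, 121 and 134 CPM in the lower-numbered set (log2 difference -2.13, SE 0.17). With Irf7 these were the 3 members at least 4-fold lower in the higher-numbered set (3.59% of all genes), and none was 4-fold higher (3.49%). Ifit2 had 55.8, 62.5 and 82.7 CPM in the higher-numbered set, against 110.2, 115 and 126 CPM in the lower-numbered set. Ifit1, the cap-sensing member of the family, had 3.05, 5.29 and 12.5 CPM in the higher-numbered set, against 11.8, 13.9 and 16.1 CPM in the lower-numbered set, and here the sets overlapped through Veh 19. The MX GTPases, which trap viral nucleocapsids, behaved alike: Mx2 had 12.02, 16.99 and 36.2 CPM in the higher-numbered set, against 64.2, 73.9 and 87.03 CPM in the lower-numbered set. Mx1 had 53.6, 74.7 and 126 CPM in the higher-numbered set, against 122, 131 and 145 CPM in the lower-numbered set, and again Veh 19 reached into the range of the lower-numbered set.

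The oligoadenylate synthetases start RNA decay through RNase L or, for Oasl, act without that product. All 4 genes of this family among the 48 were lower in every library of the higher-numbered set. Oas3 had 4.52, 6.13 and 6.61 CPM in the higher-numbered set, against 19.5, 22.8 and 23.5 CPM in the lower-numbered set (log2 difference -1.88, SE 0.09). Oas1a had 12.8, 18.2 and 22.9 CPM in the higher-numbered set, against 44.3, 49.05 and 51.1 CPM in the lower-numbered set, and Oasl had 42.5 to 74.03 CPM in the higher-numbered set and 127 to 144 CPM in the lower-numbered set. Oas2 came closest to overlap, with 19.5 to 39.1 CPM in the higher-numbered set and 39.4 to 47.7 CPM in the lower-numbered set. Outside the 48, Oas1b overlapped between sets, with 6.49 to 13.8 CPM in the higher-numbered set and 9.92 to 13.1 CPM in the lower-numbered set. Oasl2 was lower in each library, with 36.7 to 57.0 CPM and 93.8 to 114 CPM in the same order. Oas1b and Oasl2 were picked as examples. Counts of Oas1a may share reads with other Oas1 copies of the rat, and those of Ifit, Mx and Gbp genes with their paralogs. Such sharing was not measured here, and the values of single members are uncertain to that extent.

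Guanylate-binding proteins, GTPases that act on pathogen compartments and respond strongly to interferon gamma, were lower too. Gbp2 had 61.1, 66.97 and 78.03 CPM in the higher-numbered set, against 189.9, 209 and 218 CPM in the lower-numbered set (log2 difference -1.60, SE 0.06). Gbp5 had 16.3, 17.3 and 19.8 CPM in the higher-numbered set, against 41.4, 48.1 and 53.8 CPM in the lower-numbered set (log2 difference -1.44, SE 0.06). Gbp4 had 9.49 to 12.03 CPM in the higher-numbered set and 12.9 to 18.2 CPM in the lower-numbered set. All 3 were lower in each library of the higher-numbered set, in which Ifngr1 was higher and Ifngr2 lower.

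In the ISG15 and ubiquitin system, Isg15, the ubiquitin-like protein joined to targets during infection, had 13.7 and 9.76 CPM in hAEC 11 and 12, 11.9 and 11.9 CPM in hAMSC 15 and 16 and 12.8 and 8.84 CPM in Veh 19 and 20. Isg15 in the lower-numbered set had 28.7 and 30.3 CPM in hAEC 3 and 4, 28.2 and 30.1 CPM in hAMSC 7 and 8 and 27.2 and 31.5 CPM in Veh 17 and 18 (log2 difference -1.35, SE 0.09). Herc6, the ligase that attaches ISG15 in mouse cells, had 16.4, 17.6 and 22.3 CPM in the higher-numbered set, against 38.4, 46.02 and 52.1 CPM in the lower-numbered set. The other 3 genes overlapped between sets or differed the other way: Dtx3l, a ubiquitin ligase that works with Parp9, had 32.6 to 42.98 CPM in the higher-numbered set and 41.1 to 53.9 CPM in the lower-numbered set. Trim21, an intracellular antibody receptor, had 49.1 to 53.7 CPM in the higher-numbered set and 41.6 to 52.5 CPM in the lower-numbered set. Trim25, a ligase of the RIG-I pathway, was higher in each library of the higher-numbered set, with 43.3 to 51.4 CPM in the higher-numbered set and 34.9 to 38.2 CPM in the lower-numbered set (log2 difference 0.36, SE 0.04).

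Sensors of foreign nucleic acid ranged from a 2-fold difference to overlap. Dhx58, which encodes LGP2, had 58.7, 69.5 and 80.4 CPM in the higher-numbered set, against 145, 149.6 and 156 CPM in the lower-numbered set (log2 difference -1.11, SE 0.07). Zbp1, a sensor of left-handed nucleic acid, had 4.42 to 7.16 CPM in the higher-numbered set and 9.86 to 13.3 CPM in the lower-numbered set. Ifih1, which encodes MDA5, had 25.1 to 32.4 CPM in the higher-numbered set and 35.8 to 43.4 CPM in the lower-numbered set. Ddx58, which encodes RIG-I, and Eif2ak2, which encodes the kinase PKR, overlapped between sets, and so did Parp9. Ddx58 had 25.5 to 34.4 CPM in the higher-numbered set and 30.6 to 36.8 CPM in the lower-numbered set, and Eif2ak2 had 58.6 to 78.6 CPM in the higher-numbered set and 69.1 to 87.7 CPM in the lower-numbered set. Adar, the RNA editing enzyme, had 90.6 to 99.5 CPM in the higher-numbered set and 102 to 115 CPM in the lower-numbered set. Of the poly-ADP-ribose polymerases, Parp14 had 152 to 206 CPM in the higher-numbered set and 243 to 282 CPM in the lower-numbered set, Parp12 had 36.8 to 48.4 CPM in the higher-numbered set and 56.5 to 63.04 CPM in the lower-numbered set, and Parp9 had 72.4 to 93.8 CPM in the higher-numbered set and 83.4 to 98.2 CPM in the lower-numbered set.

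The remaining effectors split. Bst2, which encodes tetherin and holds budding virus at the cell surface, had 94.9, 103 and 108 CPM in the higher-numbered set, against 247, 254 and 266 CPM in the lower-numbered set (log2 difference -1.33, SE 0.03). Ifi27 had 289 to 377 CPM in the higher-numbered set and 513 to 559.9 CPM in the lower-numbered set, and Cmpk2, a mitochondrial nucleotide kinase next to Rsad2 on chromosome 6, had 9.35 to 16.2 CPM in the higher-numbered set and 18.8 to 24.1 CPM in the lower-numbered set. Isg20, an exonuclease, had 0.696 to 1.39 CPM in the higher-numbered set and 1.95 to 3.13 CPM in the lower-numbered set. Samhd1, which depletes deoxynucleotides, was higher in each library of the higher-numbered set, with 30.5 to 39.5 CPM in the higher-numbered set and 26.5 to 29.2 CPM in the lower-numbered set (log2 difference 0.37, SE 0.05). Ifi35, Ifi44 and Ifi44l overlapped: Ifi35 had 47.6 to 59.6 CPM in the higher-numbered set and 45.3 to 49.2 CPM in the lower-numbered set, Ifi44 had 27.1 to 36.7 CPM in the higher-numbered set and 22.8 to 29.1 CPM in the lower-numbered set, and Ifi44l had 4.58 to 7.87 CPM in the higher-numbered set and 7.83 to 10.5 CPM in the lower-numbered set.

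**Figure D2:**
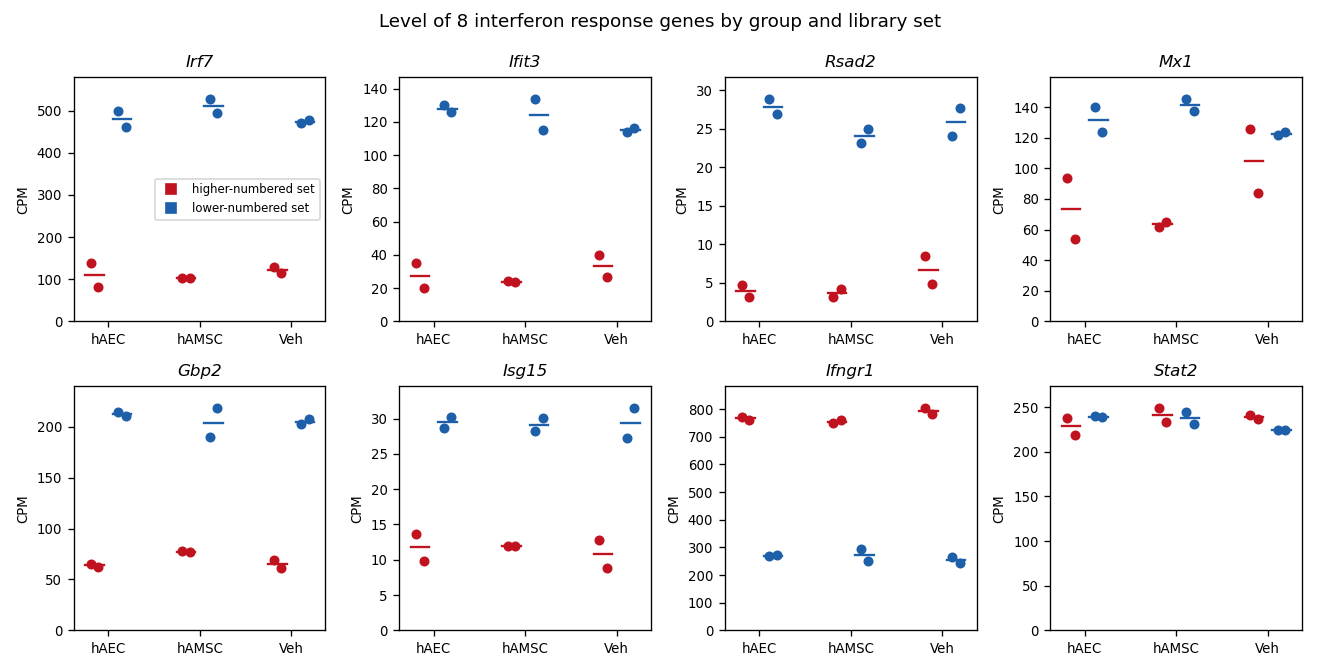
Level of 8 interferon response genes in CPM, with 1 panel per gene, each point 1 library, short lines the mean of 2 libraries, and groups in the order hAEC, hAMSC, Veh; red is the higher-numbered and blue the lower-numbered set. Irf7, Ifit3, Rsad2, Gbp2 and Isg15 are lower and Ifngr1 higher in the higher-numbered set in each group, Stat2 is level, and Mx1 in Veh 19 (126 CPM) lies within the range of the lower-numbered set.

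Genes of the pathway outside the 48 were taken from further lists. Of 11 interferon genes in the files none passed the filter: Ifna4 had at most 1 count and Ifng at most 3 counts in a library, and the other 9, Ifnb1 among them, had 0 in all 12. A count of 0 allows up to 3 counts, or 0.0859 to 0.110 CPM, in a library, for counting error only, so interferon RNA below that level was not detectable at this depth. Of 15 signalling genes, 2 were at least 2-fold lower and 2 at least 2-fold higher in the higher-numbered set (9.98% and 9.71% of all tested genes). Their median log2 difference was 0.22. In each library of that set 8 of the 15 were higher and 3 lower (26.9% and 28% of all tested genes). Socs3, an inhibitor of cytokine receptors, had 2.26 to 6.23 CPM in the higher-numbered set and 23.2 to 30.99 CPM in the lower-numbered set (log2 difference -2.98). Jak2, a kinase of the interferon gamma receptor, had 109.8 to 117 CPM in the higher-numbered set and 218 to 262 CPM in the lower-numbered set. The 2 that were at least 2-fold higher were Tyk2 and Irf8. Tyk2, a kinase of the type I receptor, had 199 to 233 CPM in the higher-numbered set and 78.2 to 85.8 CPM in the lower-numbered set. Irf8, a macrophage factor, had 189 to 205 CPM in the higher-numbered set and 77.2 to 85.5 CPM in the lower-numbered set. Of 12 further nucleic acid sensing genes, 1 was at least 2-fold lower (9.98% of all tested genes), the RNA receptor Tlr7 (log2 difference -1.16). At least 2-fold higher were 2 (9.71%), the DNA receptor Tlr9 (log2 difference 3.04) and the RNA receptor Tlr8 (log2 difference 1.23).

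Of 43 tested interferon-stimulated genes outside the 48, 12 were at least 2-fold lower and 4 at least 2-fold higher in the higher-numbered set (9.98% and 9.71% of all tested genes). Their median log2 difference was -0.48. In each library of that set 28 of the 43 were lower and 7 higher (28% and 26.9% of all tested genes). The largest differences were in Plscr1, a phospholipid scramblase, with 61.2 to 71.6 CPM in the higher-numbered set and 344 to 389 CPM in the lower-numbered set, in Slfn4, a schlafen family gene, with 142 to 261 CPM in the higher-numbered set and 828 to 1299 CPM in the lower-numbered set, and, upwards, in the membrane proteins Ifitm2, with 827 to 929 CPM in the higher-numbered set and 162 to 183 CPM in the lower-numbered set, and Ifitm1, with 995 to 1295 CPM in the higher-numbered set and 254 to 294 CPM in the lower-numbered set.

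The study asked what co-culture with amniotic cells changes in the labelled stellate cells. No interferon response gene passed the test in any of the 3 group comparisons, with the library set as a term of the model. With hAEC against Veh, 0 of 46 members passed edgeR's quasi-likelihood test in either direction, after adjustment over all genes by Benjamini and Hochberg (0% of all genes), and 1 had an unadjusted p under 0.05 (3.26% of genes were higher and 2.35% lower at that level). With hAMSC against Veh, 0 members passed (0.155% of genes higher, 0.0812% lower), and 0 had an unadjusted p under 0.05 (5.27% and 4.41% of genes). With hAEC against hAMSC, 0 members passed (0% of genes higher, 0.0222% lower), and 1 had an unadjusted p under 0.05 (3% and 3.37% of genes). DESeq2 and limma voom with the same terms called 0 members in each comparison as well, and so did a model with the group alone, in which 0 members had an unadjusted p under 0.05 in any comparison (0.79%, 1.05% and 0.591% of all genes, in the order above). Over all genes, leaving out 1 library at a time moved the number called with hAMSC against Veh, 32, to between 8 and 153, and the number with hAEC against hAMSC, 3, to between 0 and 50.

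The members with the smallest p are given as not passing. Samhd1 had 28.8, 27.9, 38.3 and 39.5 CPM in hAEC 3, 4, 11 and 12 and 29.2, 26.9, 35.8 and 39.3 CPM in hAMSC 7, 8, 15 and 16. Samhd1 had 28.4, 26.5, 34.5 and 30.5 CPM in Veh 17 to 20. Samhd1 with hAEC against Veh (log2 fold change 0.15, SE 0.06, edgeR adjusted p = 0.881) and with hAMSC against Veh (log2 fold change 0.12, SE 0.06, edgeR adjusted p = 0.568) did not pass. In the higher-numbered set the hAEC and the hAMSC pair were both above the Veh pair, and in the lower-numbered set both overlapped it. Socs1 had 4.01, 3.47, 1.60 and 2.004 CPM in hAEC 3, 4, 11 and 12 and 2.98, 3.01, 1.28 and 1.21 CPM in hAMSC 7, 8, 15 and 16. Socs1 had 2.71, 3.65, 0.882 and 1.72 CPM in Veh 17 to 20. It did not pass with hAEC against Veh (log2 fold change 0.34, SE 0.19, edgeR adjusted p = 0.920) or with hAEC against hAMSC (log2 fold change 0.42, SE 0.19, edgeR adjusted p = 0.776). The hAEC pair overlapped the Veh pair in both sets and was above the hAMSC pair in both.

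Trim21 had 52.5, 46.2, 53.7 and 50.03 CPM in hAEC 3, 4, 11 and 12 and 51.8, 46.2, 49.1 and 52.9 CPM in hAMSC 7, 8, 15 and 16. Trim21 had 43.4, 41.6, 51.1 and 52.7 CPM in Veh 17 to 20, and with hAEC against Veh it did not pass (log2 fold change 0.11, SE 0.06, edgeR adjusted p = 0.920). The hAEC pair of Trim21 was above the Veh pair in the lower-numbered set and overlapped it in the higher-numbered set. Rsad2 with hAMSC against Veh (log2 fold change -0.45, SE 0.24, edgeR adjusted p = 0.588) had 3.10 and 4.14 CPM in hAMSC 15 and 16, against 8.50 and 4.82 CPM in Veh 19 and 20. Rsad2 had 23.1 and 25.03 CPM in hAMSC 7 and 8, against 24.03 and 27.6 CPM in Veh 17 and 18. Without Veh 19 that log2 fold change was -0.19. Both hAMSC libraries of the higher-numbered set were below both Veh libraries there, and those of the lower-numbered set overlapped. Gbp2 with hAMSC against Veh (log2 fold change 0.12, SE 0.07, edgeR adjusted p = 0.594) had 78.03 and 76.8 CPM in hAMSC 15 and 16, against 68.7 and 61.1 CPM in Veh 19 and 20. In the lower-numbered set Gbp2 had 189.9 and 218 CPM in hAMSC 7 and 8, against 203 and 207 CPM in Veh 17 and 18, which overlapped. With hAEC against hAMSC, Irf2 (log2 fold change -0.06, SE 0.04, edgeR adjusted p = 0.895) and Cmpk2 (log2 fold change 0.23, SE 0.15, edgeR adjusted p = 0.933) did not pass either. Irf2 had 94.5, 98.5, 80.2 and 82.5 CPM in hAEC 3, 4, 11 and 12, against 104, 102, 80.9 and 85.6 CPM in hAMSC 7, 8, 15 and 16. Cmpk2 had 24.1, 23.5, 13.3 and 9.35 CPM in hAEC 3, 4, 11 and 12, against 21.2, 18.8, 9.43 and 10.1 CPM in hAMSC 7, 8, 15 and 16. Both hAEC libraries of the lower-numbered set were below both hAMSC libraries for Irf2 and above them for Cmpk2, and in the higher-numbered set the pairs overlapped in both genes.

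Read within each set, the log2 fold changes of most members against Veh had opposite signs, from 2 libraries on each side. Members also leaned 1 way between libraries of the same group and set. In hAEC 11, 39 of 46 were higher than in hAEC 12, with a median log2 difference of 0.31. The counts of members below are therefore not counts of replicates. With hAEC against Veh, 7 of 46 members had a log2 fold change above 0 in the higher-numbered set (49% of all genes) with a median of -0.12, and 40 of 46 were above 0 in the lower-numbered set (49.4%) with a median of 0.11. Both hAEC libraries were below both Veh libraries for 11 members in the higher-numbered set (16.6%), and above both for 25 members in the lower-numbered set (19.4%). In all, 37 members were above 0 in the lower- and below 0 in the higher-numbered set (24.7% of all genes). With hAMSC against Veh, 7 of 46 were above 0 in the higher-numbered set (48.4%) with a median of -0.15, and 34 of 46 in the lower-numbered set (48.4%) with a median of 0.07. Both hAMSC libraries were below both Veh libraries for 29 members in the higher-numbered set (18.3%), and above both for 21 in the lower-numbered set (21.7%), and 32 members had the opposite signs (24.6%). Within the higher-numbered set 0 members passed the adjusted test with hAEC (0% of genes). There 1 was higher and 5 were lower at an unadjusted p under 0.05 (3.21% and 2.25% of genes). With hAMSC 0 passed in that set (0.857% of genes higher, 0.162% lower), and 2 were higher and 9 lower at an unadjusted p under 0.05 (5.32% and 3.4%). Within the lower-numbered set 0 passed with hAEC (0%), and 3 were higher and 0 lower at an unadjusted p under 0.05 (3.19% and 2.81%). With hAMSC 0 passed there (0.0369% of genes higher, 0.0443% lower), and 1 was higher and 0 lower at an unadjusted p under 0.05 (6.85% and 5.04%). The comparisons with hAEC and with hAMSC share their 4 Veh libraries, 2 in each set, so their signs are not independent. Without hAEC 12, 20 members rather than 39 were below 0 with hAEC in the higher-numbered set, so that count rests on this library. With hAMSC it lay between 36 and 40 whichever library was left out, and was 37 without Veh 19.

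**Figure D3:**
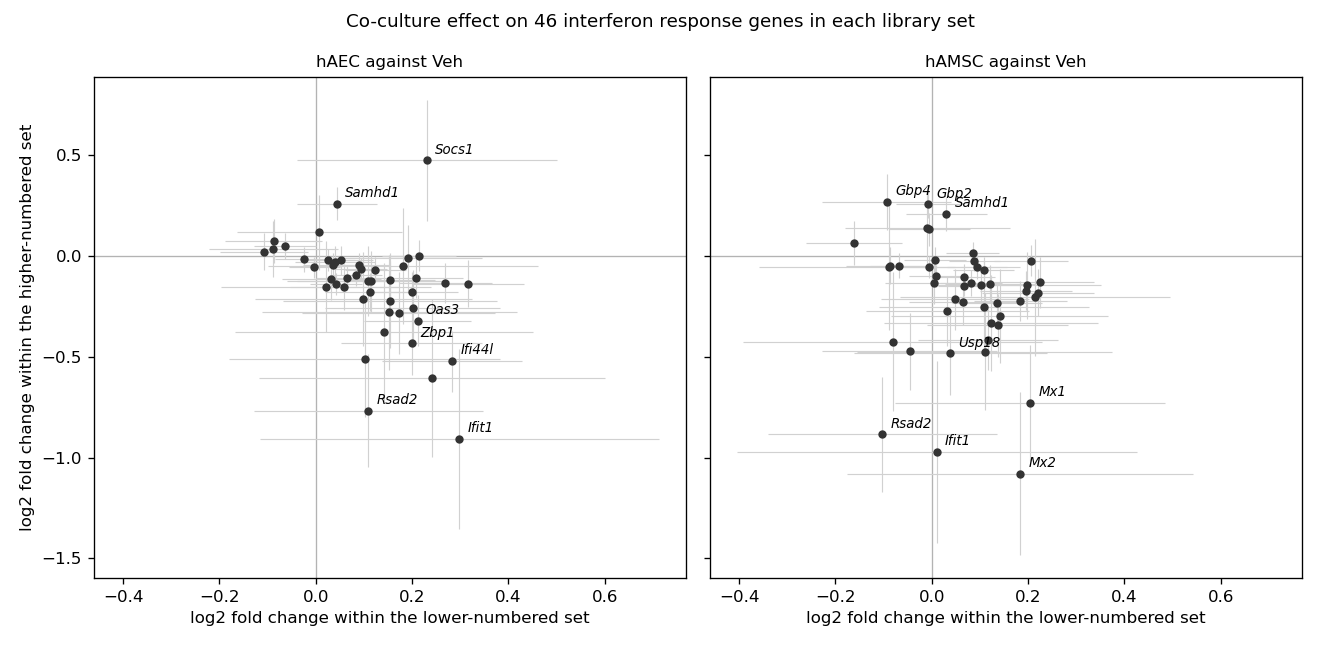
Log2 fold change of each of the 46 interferon response genes within the lower-numbered set (horizontal) and within the higher-numbered set (vertical), for hAEC against Veh on the left and hAMSC against Veh on the right, with standard errors from the fit over all genes. Most points lie to the right of 0 and below it, 37 of 46 with hAEC and 32 of 46 with hAMSC.

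The difference of the effect between sets was tested itself, as an interaction. With hAEC it had an unadjusted p under 0.05 for 11 members (5.4% of all genes) and 0 members passed the adjusted threshold (0% of genes). With hAMSC it had an unadjusted p under 0.05 for 10 members (10% of genes), and 0 members passed (0.17% of genes with a higher and 0.0295% with a lower effect in the higher-numbered set). DESeq2 and limma voom called 0 members too. Without the filter on low counts 9 members passed with hAEC, of 309 genes in all, and 13 with hAMSC, of 533 genes, each with a lower effect in the higher-numbered set. That run tested 47 members among all 32623 genes in the files, less the 12070 genes with 0 counts in all 12 libraries. The members of smallest p with hAEC were Ifi44l and Oas3. Ifi44l, an interferon-induced cytoplasmic protein, had 5.74 and 4.58 CPM in hAEC 11 and 12, against 7.87 and 6.94 CPM in Veh 19 and 20. The lower-numbered set had 10.5 and 9.77 CPM in hAEC 3 and 4, against 7.83 and 8.83 CPM in Veh 17 and 18. The hAEC libraries were below Veh in one set and above it in the other, without overlap (difference of log2 fold changes -0.81, SE 0.21, edgeR adjusted p = 0.645). Oas3 had 6.03 and 4.52 CPM in hAEC 11 and 12, against 6.56 and 6.61 CPM in Veh 19 and 20. Oas3 had 22.8 and 23.1 CPM in hAEC 3 and 4, against 19.5 and 20.1 CPM in Veh 17 and 18 (difference -0.53, SE 0.17, edgeR adjusted p = 0.779). Here too the pairs did not overlap in either set.

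With hAMSC the smallest p were those of Eif2ak2 and Ifnar1. Eif2ak2 had 58.6 and 64.4 CPM in hAMSC 15 and 16, against 78.6 and 65.2 CPM in Veh 19 and 20. Eif2ak2 had 84.01 and 80.8 CPM in hAMSC 7 and 8, against 76.00 and 69.1 CPM in Veh 17 and 18 (difference -0.41, SE 0.14, edgeR adjusted p = 0.341). Ifnar1 had 589 and 575 CPM in hAMSC 15 and 16, against 672 and 618 CPM in Veh 19 and 20. Ifnar1 had 652 and 601 CPM in hAMSC 7 and 8, against 599.8 and 596 CPM in Veh 17 and 18 (difference -0.22, SE 0.08, edgeR adjusted p = 0.355). In both genes the hAMSC pair was below the Veh pair in the higher-numbered set and above it in the lower-numbered set. Within the higher-numbered set the log2 fold change of Mx2 with hAMSC was -1.08 (SE 0.40) and that of Ifit1 -0.97 (SE 0.45), with Veh 19 far above Veh 20 in both. Mx2 and Ifit1 were picked as examples and not by smallest p. The guanylate-binding proteins were an exception to the sign: with hAMSC all 3 were above 0 in the higher-numbered set and 0 of 3 in the lower-numbered set, and Gbp2, chosen here after its values were seen, had 0.25 (SE 0.07) and -0.01 (SE 0.07) in that order.

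Of the pathway genes outside the 48, the Socs3 effect of hAMSC differed between sets by the same test (edgeR adjusted p = 0.0192). Socs3 had 6.23 and 5.79 CPM in hAMSC 15 and 16, against 2.33 and 2.85 CPM in Veh 19 and 20 (log2 fold change 1.22). Socs3 had 27.1 and 30.99 CPM in hAMSC 7 and 8, against 26.7 and 30.7 CPM in Veh 17 and 18 (0.02). The hAMSC pair was above the Veh pair without overlap in the higher-numbered set, and the pairs overlapped in the lower-numbered set. Socs3 passed in 7 of the 12 fits that left out 1 library, with a difference of 1.06 to 1.35, and did not pass without hAMSC 7, hAMSC 15, Veh 18, Veh 19 or Veh 20 (edgeR adjusted p of 0.0541 to 0.109). In those fits the number of genes called by this test lay between 0, without Veh 19, and 158, where the whole data gave 27. No further gene of the 15 signalling, 12 sensing and 43 interferon-stimulated genes outside the 48 passed this test, and none of them passed in the comparisons of the groups over both sets. Within the higher-numbered set 3 of them passed with hAMSC against Veh, Socs3 (edgeR adjusted p = 0.00100), Stat3, a factor of the response to interleukins (0.0393), and Tlr9 (0.0429), with log2 fold changes of 1.22, 0.22 and -0.60. Socs3 passed there with hAEC against hAMSC too (log2 fold change -1.27, edgeR adjusted p = 0.000737). Both Socs3 results passed whichever library was left out, whereas Stat3 passed in 0 of those 12 fits and Tlr9 in 2, the fits without hAMSC 7 and without hAMSC 8. Within the lower-numbered set none passed.

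Libraries of the same group and set also differed in the level of the members. In the higher-numbered set 39 of 46 members were higher in hAEC 11 than in hAEC 12, with a median log2 difference of 0.31 (all genes 50.4% and 0.00), and 9 members differed by over 0.5, which is 19.6% against 6.65% of all genes. Between Veh 19 and Veh 20, 36 of 46 were higher in Veh 19, with a median of 0.17, and 8 differed by over 0.5, which is 17.4% against 5.24%. Between hAMSC 15 and hAMSC 16 the members were balanced, with 22 of 46 higher in hAMSC 15, a median of -0.00 and a median absolute difference of 0.088. The median absolute difference in the lower-numbered set was 0.055 for hAEC 3 and 4 and 0.058 for Veh 17 and 18, less than in the higher-numbered pairs of these groups (0.31 and 0.17). For hAMSC 7 and 8 it was 0.090, and 38 of 46 members were higher in hAMSC 7 (52.7% of all genes), with a median of 0.07. In these 3 pairs 0, 1 and 0 members differed by over 0.5. Relative to the Veh mean of the same set, the median member stood at 0.02 in hAEC 11, -0.26 in hAEC 12, -0.15 in hAMSC 15 and -0.12 in hAMSC 16, and at 0.08 in Veh 19 and -0.08 in Veh 20. In the lower-numbered set it stood at 0.16 in hAEC 3, 0.08 in hAEC 4, 0.13 in hAMSC 7 and 0.04 in hAMSC 8, and at -0.01 in Veh 17 and 0.01 in Veh 18. The hAEC libraries of the higher-numbered set lay further from each other in this measure than either hAMSC library lay from the Veh mean.

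Mx2 shows this spread: it had 25.1 CPM in hAEC 11 and 12.02 CPM in hAEC 12, 13.8 and 12.9 CPM in hAMSC 15 and 16, and 36.2 and 20.2 CPM in Veh 19 and 20. Veh 19 was the highest, and hAEC 11 lay between the Veh libraries. Mx2 was picked for this example after its values were seen.

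**Figure D4:**
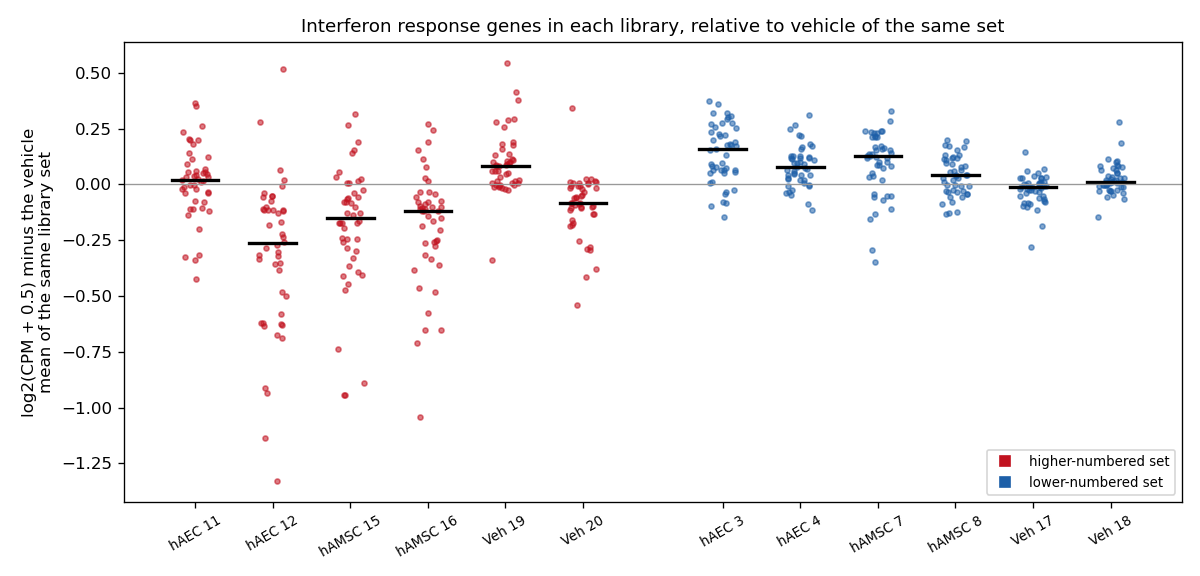
Each of the 46 interferon response genes in each library, as log2(CPM + 0.5) minus the mean of the 2 Veh libraries of the same set; points are genes and black bars their median, red for the higher-numbered and blue for the lower-numbered set. Medians run from -0.26 in hAEC 12 to 0.08 in Veh 19 in the higher-numbered set, and from -0.01 in Veh 17 to 0.16 in hAEC 3 in the lower-numbered set.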

How the data were processed

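Polyadenylated RNA was measured in 12 libraries, 4 per group. Per the labels' protocols, extraction used the RNAqueous-Micro kit and library preparation the TruSeq stranded mRNA kit. The authors deposited 1 table of expected counts for each library, a value that RSEM estimates. The submitters' processing notes name the builds rn6 and Rnor_6.0 and the tools FastQC, Trim Galore, STAR, RSEM and limma; versions, roles and strand setting were not given in the sources used here. Whole numbers made up 90.1% of the deposited values, zeros included. RSEM shares reads that fit several genes, which can affect close paralogs.

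The tests used edgeR 4.0.16 (R 4.3.3) on the rounded expected counts: filterByExpr by group kept 13539 genes, TMM factors were 0.973 to 1.03, and a robust quasi-likelihood fit over all 12 libraries (glmQLFit, glmQLFTest, two-sided) had the library set and the group as terms, with Benjamini-Hochberg adjustment over all genes and a threshold of 0.05. Within-set effects and interactions came from a fit with 1 mean per group and set (6 residual degrees of freedom, 8 in the other fit). The biological coefficient of variation was 9.91% with the set and 38.9% without it. The sets are the 2 lower and the 2 higher sample numbers of each group. The members, the lists, the set term and the tests were chosen with earlier results of these data known. Genes named with values per library are the receptors, Stat2, Irf1, Irf7, Irf9 and Isg15, the 3 members of smallest p per comparison, the 2 of smallest p per interaction, and members that differ at least 4-fold between sets, these last by range; examples chosen otherwise are marked. The chi-square of the counts of 2 libraries, per degree of freedom, was at least 6.23 in every pair, so none was a duplicate. Promoters were matched by symbol to RefSeq windows of GRCr8. The steps were tested on simulated counts. Alternatives were other scaling (RLE, library size alone), other filters, DESeq2 1.42.0, limma voom 3.58.1, a non-robust fit, the 2 compared groups alone, the group alone, Veh libraries alone for the sets, and leaving out each library; the counts of members above or below 0 within a set and the pathway genes outside the members with each library left out were added after seeing the data.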

Additional observations from a re-analysis of the deposited data

Results flagged for a closer look

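In 230 sets of values (46 genes in each of the 3 groups and in each of the 2 library sets), 5 held a library set apart from the others by a gap large for the range of that set of values. That is 2.17%. Chance would give about 5% only where the libraries of a set of values differ at random. Each group of 4 pools 2 libraries from each of the 2 library sets. For genes that differ between the library sets, this split makes a gap at the end of the range less likely. The 2.17% can therefore not be judged against the 5%. In the Veh group of 4, Ifi35 was high in Veh 19 with 57.3 CPM, where the next library had 47.6 CPM. In the same group Ifit1 was low in Veh 20 with 5.63 CPM, where the next had 12.3 CPM. Mx1 was low in Veh 20 too, with 84.2 CPM, where the next had 122 CPM. This grouping pools the library sets. Within the higher-numbered set Veh 20 lay among the other libraries in both genes, and Veh 19 was the highest with 12.5 and 126 CPM. Among the 6 libraries of the higher-numbered set, Rsad2 was high in Veh 19 with 8.50 CPM, where the next had 4.82 CPM. In the hAEC group of 4, Stat2 was low in hAEC 12 with 219 CPM, where the next had 238 CPM. Of these libraries, Veh 19, Veh 20 and hAEC 12 all belong to the higher-numbered set.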

How the results depend on the processing

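No paired analysis was possible because no sample number is shared between groups. The counts of members with at least a 2-fold set difference stayed at 16 to 18 lower and 1 higher with each library left out, and the members called in the 3 group comparisons stayed at 0 in every alternative run. The number of all genes at least 2-fold higher in the higher-numbered set, 1315, was 675 over genes averaging 5 CPM or more and 3320 with no filter, and was 1341 to 1393 with a library left out; for 2-fold lower, 1351, these were 669, 3546 and 1355 to 1442. Genes called with hAEC against Veh, 0, were 2 with DESeq2 and 10 with the 2 groups alone, and 0 with any library left out. With hAMSC against Veh, 32 became 155 with DESeq2, 0 with the group alone, 52 with no filter, 12 in a fit that is not robust, 9 with the 2 groups alone, and 8 to 153 with a library left out. With hAEC against hAMSC, 3 became 80 with DESeq2, 0 with the group alone, 26 with no filter, 0 when not robust, and 0 to 50. For the set difference of the hAEC effect, 0 became 23 with DESeq2, 309 with no filter and 0 to 5 with a library left out, and 9 members were called with no filter. For that of hAMSC, 27 became 113 with DESeq2, 4 with voom, 533 with no filter, 17 when not robust and 0 (without Veh 19) to 158, and 13 members were called with no filter. Members below 0 in the higher-numbered set with hAEC were 20 (without hAEC 12) to 42 with a library left out, and with hAMSC 36 to 40; members above 0 in the lower-numbered set were 38 to 40 with hAEC and 28 to 36 with hAMSC. None of the 187 alternative values of the 9 smallest-p results changed sign or passed. The cause of these shifts was not tested. Pairs of libraries per group and set limit the within-set comparisons, and members of a few CPM, such as Socs1 and Isg20, carry wide errors.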

Other observations

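Genes of antigen presentation, which interferon gamma induces, are among the 43 interferon-stimulated genes counted above, where their own values were not given. Ciita, the master regulator of MHC class II genes, had 127 to 148 CPM in the higher-numbered set and 296 to 311 CPM in the lower-numbered set. Psmb8, a subunit of the immunoproteasome, had 153 to 167 CPM and 255 to 271 CPM in the same order, and Tap1, a peptide transporter, had 66.9 to 75.8 CPM and 114 to 125 CPM. In all 3 each library of the higher-numbered set was lower. Ifi30, a lysosomal thiol reductase that prepares antigens, had 965 to 1068 CPM and 445 to 469 CPM, so it differed the other way. Ifitm3 also differed in the opposite sense to Ifitm1 and Ifitm2, with 7.82 to 11.9 CPM in the higher-numbered set and 23.5 to 31.0 CPM in the lower-numbered set. These 5 were chosen after their values were seen.

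Oas1i, a further Oas1 copy of the rat, had 2.13 CPM in hAEC 12, 0.0337 CPM in hAMSC 15 and 5.05 CPM in Veh 17, and 0 in the other 9 libraries. It was picked as an example and did not pass the filter on low counts.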
